A study of Mus musculus with 5 samples.

Results

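The insulin and insulin-like growth factor (IGF) signalling components studied here were 10 mouse genes, taken by symbol. They comprised the receptors *Insr*, *Igf1r*, and *Igf2r*, the receptor substrates *Irs1*, *Irs2*, and *Irs4*, and the IGF-binding proteins *Igfbp2*, *Igfbp4*, *Igfbp5*, and *Igfbpl1*. In the table of 20224 genes, 9 of the 10 had a row, and counts of *Irs4* were not analysed here. All 9 passed the filter on low counts, along with 15032 genes in all.

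RNA-seq was performed on sympathetic neurons sorted from the ganglia of E14.5 embryos, and 100 cells went into each library. The libraries were controls (2, numbered replicates 5 and 6) and *Hif1aCKO* (3, numbered replicates 3, 4, and 5), and values by library are given in that order throughout. *Hif1aCKO* embryos were Hif1a loxP/loxP; Isl1Cre; tdTomatoAi14, and the sorted controls were Hif1a loxP/+; Isl1Cre; TdtomatoAi14. All carried the Prph-eGFP transgene, in which the peripherin gene drives eGFP, and cells positive for both eGFP and tdTomato were collected. The pregnancies were non-diabetic, so no library tested exposure to a diabetic mother. The Cre is a knock-in at *Isl1*, so both genotypes carried 1 *Isl1-Cre* allele and the comparison holds no cells without Cre. The floxed line was on a mixed C57BL/6J; C57BL/6N background and the Cre line on FVB. The labels describe controls of the line in general as lacking *Isl1-Cre*, but the tdTomato by which these cells were sorted depends on Cre. They do not say whether a library came from 1 embryo or several, so p-values measure the spread between these samples only.

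The insulin receptor and the IGF1 receptor are related tyrosine kinases that phosphorylate the insulin receptor substrates (IRS proteins), which in turn recruit phosphatidylinositol 3-kinase (PI3K) and activate AKT, mTOR, and the Ras branch. IGF2R binds IGF2 and carries it to lysosomes, and the IGF-binding proteins hold IGFs outside the cell and limit or prolong their action. In developing neurons this pathway is known for its part in survival, growth, and axon extension.

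Counts per library summed to between 8254211 and 9700887. *Hif1a* itself had 2086 and 1584 normalized counts in control and 2747, 1757, and 2135 in *Hif1aCKO* libraries. A normalized count is a count scaled to the mean library size with TMM factors. The allele removes exon 2 alone, so counts over the whole gene do not read the deletion. Of 10 sympathetic neuron markers all had counts in every library, and their summed normalized counts were 54441 and 67176 in control and 46401 to 48897 in *Hif1aCKO* libraries. The 10 mitosis markers summed to 15847 and 16902 in control and to 23437 to 30725 in *Hif1aCKO* libraries, and 9 of the 10 were higher in every *Hif1aCKO* library. Of 8 Schwann cell precursor markers, 5 had a row, and they summed to 1199 in *Hif1aCKO* replicate 3 against 30.6 to 55.2 in the other 4 libraries. In that replicate *Fabp7* alone had 993, *Sox10* had 8.58, and *Cdh19*, at 0 in the other libraries, had 54.7. The 5 mesenchyme markers with a row summed to at most 26.3 and the 2 endothelium markers to at most 38.0.

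No member was called different between genotypes by edgeR's quasi-likelihood test, which required an adjusted p under 0.05, a change of more than 0.3 on the log2 scale in either direction, and 50 normalized counts on average. The test called 0 of the 15032 genes (0%), so it left no background of calls against which to read the members. At an unadjusted p under 0.05 it found 2 of 9 members (22.2%), *Irs1* lower and *Insr* higher, against 7.67% of all genes (3.85% lower and 3.83% higher). DESeq2 at the same thresholds called 1 member, *Irs1*, against 0.297% of all genes, or 0.149% called lower. The normalized counts of the genotypes did not overlap for 2 members, 1 higher and 1 lower, against 25.7% of all genes and 12.9% in each direction. This share was near the background. In all, 5 members were higher and 4 lower in *Hif1aCKO* neurons, and their median log2 fold change was 0.019, beside 0.012 over all genes tested.

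**Figure D1:**
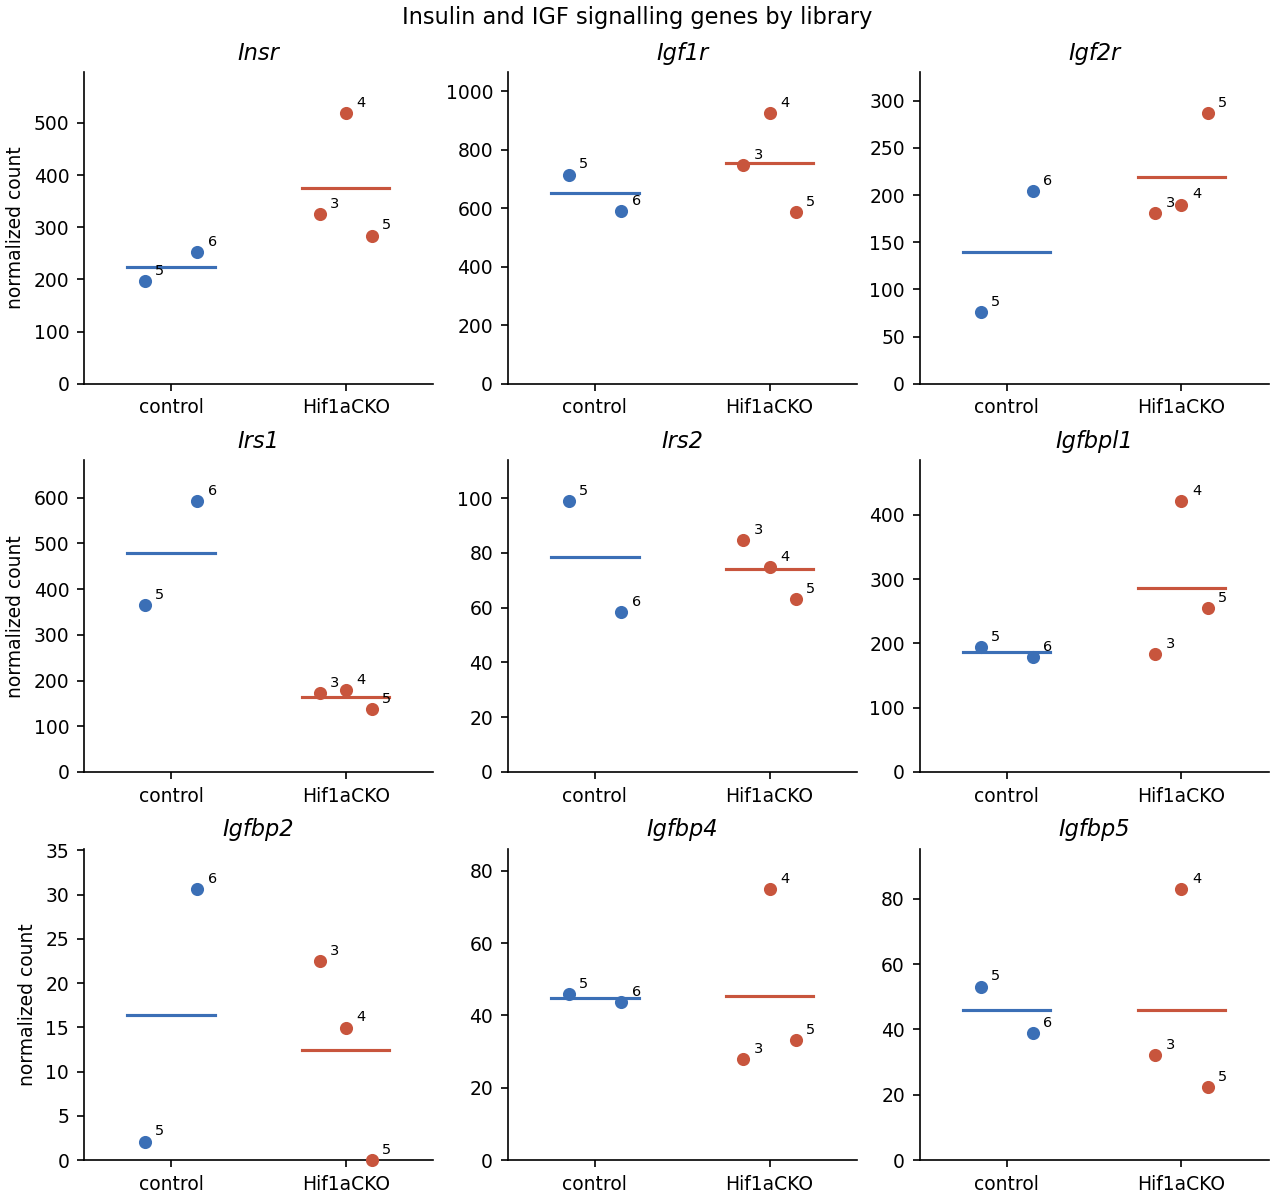
Normalized counts (vertical axes, linear and starting at 0, a scale for each gene) of the 9 members with a row in 2 control and 3 *Hif1aCKO* libraries. Each point is 1 library with its replicate number, and bars are group means; the *Irs1* points of *Hif1aCKO* are 138 to 179 and the control points 365 and 593.

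*Irs1*, which encodes a docking protein for the insulin and IGF1 receptors, had the largest fold change of the members. It had 365 and 593 normalized counts in control and 173, 179, and 138 in *Hif1aCKO* libraries. The *Hif1aCKO* libraries lay close together and below both controls, whereas the controls lay further apart. The means were 479 ± 161 (SD, n = 2) and 163 ± 21.9 (SD, n = 3), which was 2.93-fold lower in *Hif1aCKO* neurons. On the log2 scale the fold change was -1.55 ± 0.28 (SE), with a 95% interval from -2.20 to -0.91. Its unadjusted p in edgeR, 0.000534, ranked 15 among all genes, and its adjusted p was 0.521. DESeq2 gave a log2 fold change of -1.56 and an adjusted p of 0.00184. Without control replicate 6 the DESeq2 call was lost, with a log2 fold change of -1.16 and an adjusted p of 0.794, and the other 4 omissions gave an adjusted p between 0.00234 and 0.0316. Without *Hif1aCKO* replicate 3, the library with Schwann cell precursor transcripts, edgeR's log2 fold change was -1.60. Like *Irs1*, the genes listed as motor neuron markers (3 of 5 with a row) were, when summed, lower in every *Hif1aCKO* library and highest in control replicate 6. They summed to 685 and 944 in control and 298, 361, and 537 in *Hif1aCKO* libraries. Most of this was *Slc18a3*, at 611 and 839 in control and 285, 266, and 524 in *Hif1aCKO* libraries. *Chat* and *Slc5a7* overlapped between genotypes, and *Mnx1* and *Lhx3* had no row, so the sum rested mainly on 1 gene. Whether motor neurons were among the sorted cells was not tested. The sympathetic neuron sum was also lower in every *Hif1aCKO* library, and the mitosis sum and the 1 erythroid marker with a row (8.33 and 13.9 against 15.0, 31.0, and 25.3) were higher. The part of these markers in the *Irs1* difference was not tested. In bulk libraries fewer cells with a transcript and less of it per cell cannot be told apart.

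*Irs1* (ENSMUSG00000055980) lies on the minus strand of chromosome 1, from 82233101 to 82291416 on GRCm38 (GENCODE M21), and has 2 exons. The first exon spans 4640 bases and holds the whole coding sequence of 3693 bases, and the second spans 4504 bases of untranslated sequence. *Gm9747* (ENSMUSG00000022591), annotated as protein-coding on the opposite strand from 82233112 to 82235933, lies entirely within the second exon, where its 2822 bases make up 30.9% of the *Irs1* exonic bases. *Gm9747* received 268 and 504 counts in control and 131, 154, and 145 in *Hif1aCKO* libraries. There were 0.766 to 1.02 *Gm9747* counts for each *Irs1* count. Its log2 fold change was -1.36 ± 0.29 (SE), with an adjusted p of 0.586 in edgeR and 0.0223 in DESeq2. The authors counted with the defaults of Rsubread, which ignore strand and leave out reads that lie on more than 1 gene, and their annotation release M8 was not used here. Under these defaults and the M21 exons, every read on *Gm9747* would lie on *Irs1* too and be left out. Yet *Gm9747* received counts, so the exons or settings used for counting differed from these. How reads in the shared bases were assigned is unknown. Reads from *Irs1* and from *Gm9747* cannot be told apart within the shared bases, and *Gm9747* is no independent measure of the *Irs1* difference.

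**Figure D2:**
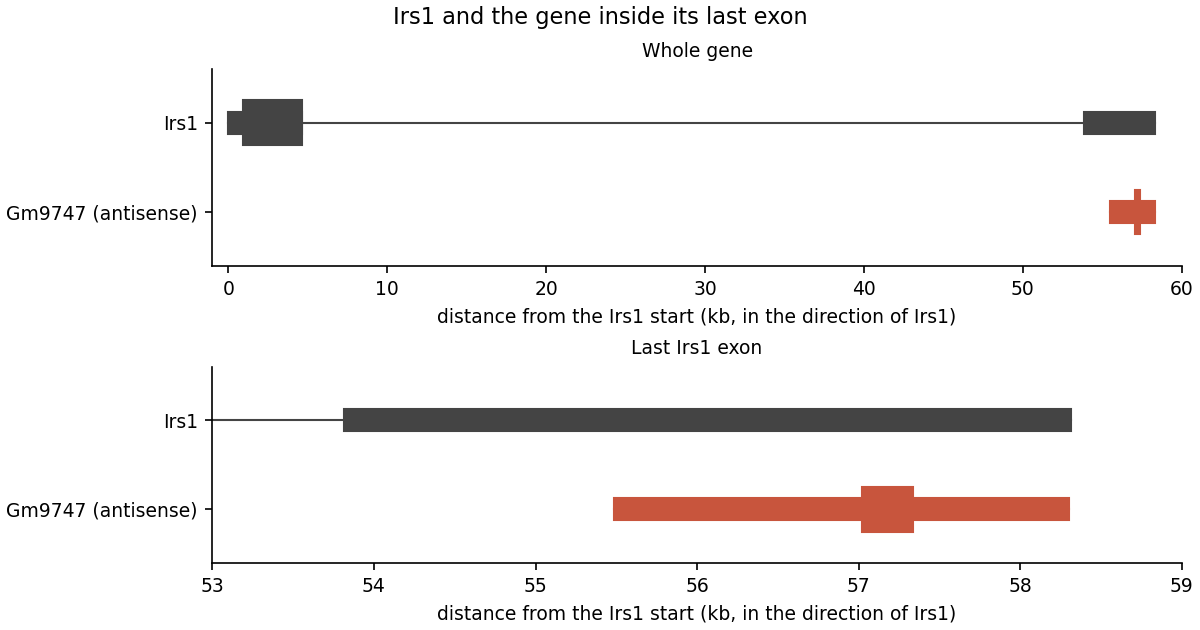
Exons of *Irs1* and *Gm9747* drawn to scale against the distance from the *Irs1* start in kb, for the whole gene (top) and its last exon (bottom). Tall boxes are coding and low boxes untranslated sequence, and *Gm9747* lies wholly inside the last *Irs1* exon.

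*Irs2*, the other substrate with a row (chromosome 8, 10984681 to 11008458), had nearly equal means in the genotypes. It had 99.0 and 58.4 normalized counts in control and 84.7, 74.9, and 63.2 in *Hif1aCKO* libraries, so that all *Hif1aCKO* values lay between the controls. Its log2 fold change was -0.082 ± 0.43 (SE), with a 95% interval from -1.08 to 0.92 and an adjusted p of 0.981 in edgeR, and it turned positive without control replicate 5 (0.34) and without *Hif1aCKO* replicate 5 (0.022). *Irs1* made up 78.7% and 91.0% of the raw counts of *Irs1* and *Irs2* together in control and 67.1%, 70.5%, and 68.6% in *Hif1aCKO* libraries. The 95% Wilson intervals were 74.6% to 82.2% and 88.7% to 92.9% in control, and from 60.9% to 75.7% over the *Hif1aCKO* libraries. They cover counting error of reads only, and the control intervals did not overlap each other. The shares of the genotypes did not overlap, but the interval of control replicate 5 overlapped that of *Hif1aCKO* replicate 4.

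The sequence before the transcription start was examined in the *Irs* genes because HIF-1 binds DNA motifs with the core ACGTG or GCGTG. RefSeq start sites on GRCm38.p6 gave 9 windows of 250 bases for 8 members, while *Insr* and *Igfbpl1* had no entry. Counting both strands, ACGTG or GCGTG occurred in 6 of these 9 windows and in 38.6% of all 32851 windows of this length. In the windows of *Irs1*, *Irs2*, and *Irs4* ACGTG lay in the palindrome CACGTG, and GCGTG occurred outside it. The palindrome reads ACGTG on both strands and was present in 6.02% of all windows. It also occurred before *Igf2r* and *Igfbp2*, and so in 5 of the 9 windows. TTTTGC followed this palindrome directly in *Irs1* and after 3 bases in *Irs2* and *Irs4*. The stretches are shown because the 3 substrate genes shared this arrangement. The capitals mark CACGTG and TTTTGC, and all 3 stretches are on the minus strand, at chr1:82291505-82291564, chr8:11008930-11008983, and chrX:141725322-141725381.
Irs1: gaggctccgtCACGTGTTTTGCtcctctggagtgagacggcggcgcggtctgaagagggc
Irs2: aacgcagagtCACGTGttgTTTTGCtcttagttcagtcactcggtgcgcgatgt
Irs4: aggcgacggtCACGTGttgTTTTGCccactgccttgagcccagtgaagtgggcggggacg
CACGTG with TTTTGC within 12 bases, looked for after these sequences had been seen, occurred in 8 of the 32851 windows, and 3 of the 8 were these. The palindrome began 115 bases before the RefSeq start of *Irs1*, 44 before that of *Irs2*, and 154 before that of *Irs4*. The *Irs2* window, from 11008930 to 11009179, does not adjoin the GENCODE M21 start of the gene at 11008458, so these distances hold for RefSeq starts only. *Irs1* and *Irs2* thus shared these letters while their log2 fold changes were -1.55 and -0.082, a contrast between the 2 genes that was not itself tested. A match is a description of the sequence, and no binding was measured in these libraries. The 9 windows held 56.4% to 77.6% G and C bases, and the shares over all windows were not matched for this.

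Of the receptors, *Insr*, which encodes the insulin receptor (ENSMUSG00000005534, chromosome 8, 3122061 to 3279617), had 197 and 252 normalized counts in control and 325, 519, and 284 in *Hif1aCKO* libraries. All *Hif1aCKO* libraries lay above both controls, replicate 4 the highest and replicate 5 close to control replicate 6. The means were 225 ± 39.2 (SD, n = 2) and 376 ± 126 (SD, n = 3). The log2 fold change was 0.74 ± 0.32 (SE), with a 95% interval from 0.014 to 1.47. edgeR gave an unadjusted p of 0.0467 and an adjusted p of 0.647, and DESeq2 an adjusted p of 0.477, so that *Insr* did not pass. Without *Hif1aCKO* replicate 4 its log2 fold change was 0.44.

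*Igf1r*, the receptor for IGF1 and IGF2 (chromosome 7, 67952827 to 68233668), had 716 and 591 normalized counts in control and 748, 927, and 587 in *Hif1aCKO* libraries. *Hif1aCKO* replicate 5 lay just below control replicate 6, so the groups overlapped. The log2 fold change was 0.21 ± 0.23 (SE), with a 95% interval from -0.31 to 0.73 and an adjusted p of 0.869 in edgeR. *Insr* made up 21.6% and 29.9% of the raw counts of *Insr* and *Igf1r* together in control and 30.3%, 35.9%, and 32.6% in *Hif1aCKO* libraries. The Wilson intervals of control replicate 6 (27.0% to 33.0%) and *Hif1aCKO* replicate 3 (27.5% to 33.2%) overlapped over most of their width.

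*Igf2r*, which encodes the scavenging receptor for IGF2 and for mannose 6-phosphate (chromosome 17, 12682406 to 12769664), had 76.0 and 204 normalized counts in control and 181, 190, and 287 in *Hif1aCKO* libraries. Control replicate 5 was the lowest library, and the groups overlapped. The log2 fold change was 0.64 ± 0.45 (SE, 95% interval -0.39 to 1.67, adjusted p = 0.762 in edgeR), and it was 0.10 without control replicate 5 and 1.52 without control replicate 6.

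**Figure D3:**
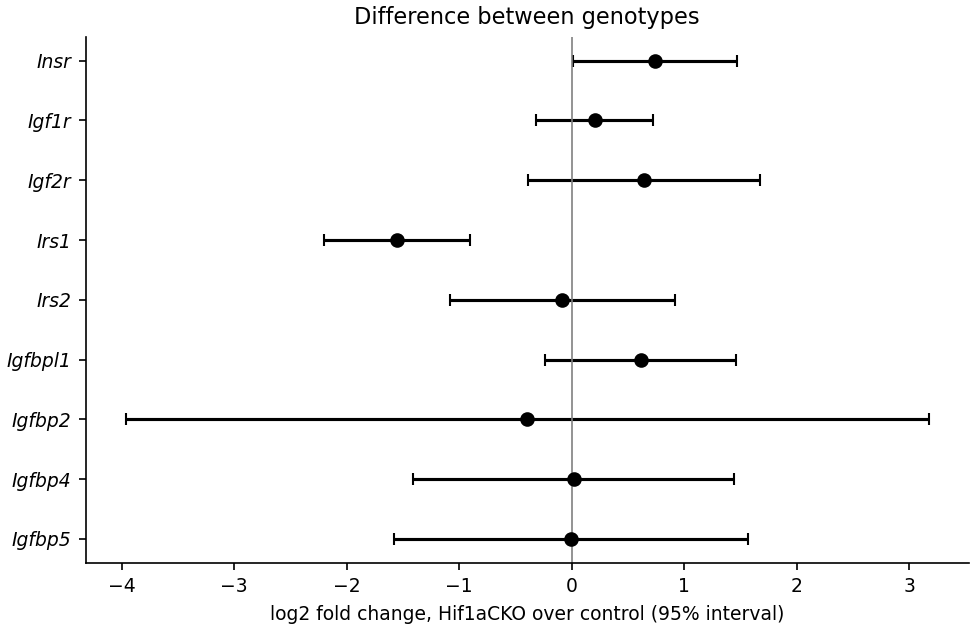
Log2 fold change of *Hif1aCKO* over control (horizontal axis) for the 9 members with a row; points are estimates of edgeR's quasi-likelihood fit and bars their 95% intervals. The intervals of *Irs1* (-2.20 to -0.91) and *Insr* (0.014 to 1.47) exclude 0 before adjustment over all genes, and the other 7 span it.

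*Igfbpl1*, which encodes a secreted protein related to the IGF-binding proteins (chromosome 4, 45809468 to 45826923), was the binding protein with the most counts. It had 195 and 179 normalized counts in control and 183, 421, and 255 in *Hif1aCKO* libraries. *Hif1aCKO* replicate 3 lay between the controls and the other *Hif1aCKO* replicates above them. The log2 fold change was 0.62 ± 0.37 (SE, 95% interval -0.23 to 1.47, adjusted p = 0.720 in edgeR), and 0.23 without *Hif1aCKO* replicate 4.

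*Igfbp4*, an inhibitor of IGF action that the protease PAPPA cleaves (chromosome 11, 99041244 to 99054392), had 45.8 and 43.6 normalized counts in control and 27.9, 74.9, and 33.1 in *Hif1aCKO* libraries. *Igfbp5*, which binds IGFs and the extracellular matrix (chromosome 1, 72857932 to 72874884), had 53.1 and 39.0 in control and 32.2, 82.9, and 22.4 in *Hif1aCKO* libraries. In both genes *Hif1aCKO* replicate 4 was the highest library and the other *Hif1aCKO* replicates the lowest. The log2 fold changes were 0.019 ± 0.62 (SE) and -0.0061 ± 0.68 (SE), and their 95% intervals, from -1.41 to 1.45 and from -1.58 to 1.57, left changes of either sign possible.

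*Igfbp2*, a binding protein of fetal tissues (chromosome 1, 72824503 to 72852474), was near the limit of detection. It received 2 and 33 raw counts in control and 21, 15, and 0 in *Hif1aCKO* libraries. Each genotype held a library at 0 to 2 counts, and the log2 fold change of -0.39 ± 1.55 (SE) had a 95% interval from -3.96 to 3.17. No difference was detectable beyond this spread between libraries.

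Levels can be compared between genes only per length, and the medians over the 5 libraries are given here in normalized counts per kb of exon. *Igfbpl1* had the highest level (59.9), followed by *Igf1r* (42.6), *Insr* (20.7), *Igf2r* (20.4), *Irs1* (19.5), *Irs2* (11.8), *Igfbp4* (9.87), *Igfbp2* (8.11), and *Igfbp5* (6.49). The ranges of every pair of neighbours in this order overlapped over the libraries. Within libraries, *Igfbpl1* lay above *Igf1r*, *Igf1r* above *Insr*, and *Irs1* above *Irs2* in 5 of 5, whereas *Insr* lay above *Igf2r* in 3 of 5. The level of *Igfbpl1* was above 58.3% of the genes tested and that of *Igfbp5* above 14.9%. The place of *Irs1* in this order varied between libraries. Its level in control was 52.3 ± 17.6 (SD, n = 2) per kb, but the controls ordered it differently. In replicate 5 it lay at 39.9, below *Igfbpl1* (59.9) and *Igf1r* (42.6), and in replicate 6 at 64.8, above *Igfbpl1* (55.1). In *Hif1aCKO* neurons it was 17.8 ± 2.39 (SD, n = 3) and, over this full exonic length, lay below *Igf2r* (23.6 ± 6.32) in each library. Dividing the *Irs1* counts by its first exon alone gave a median of 38.5 per kb (29.8 to 128 over the libraries). Its place in this order, also against *Igf2r*, therefore rests on how many reads fell in the second exon, which holds the bases shared with *Gm9747*.

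**Figure D4:**
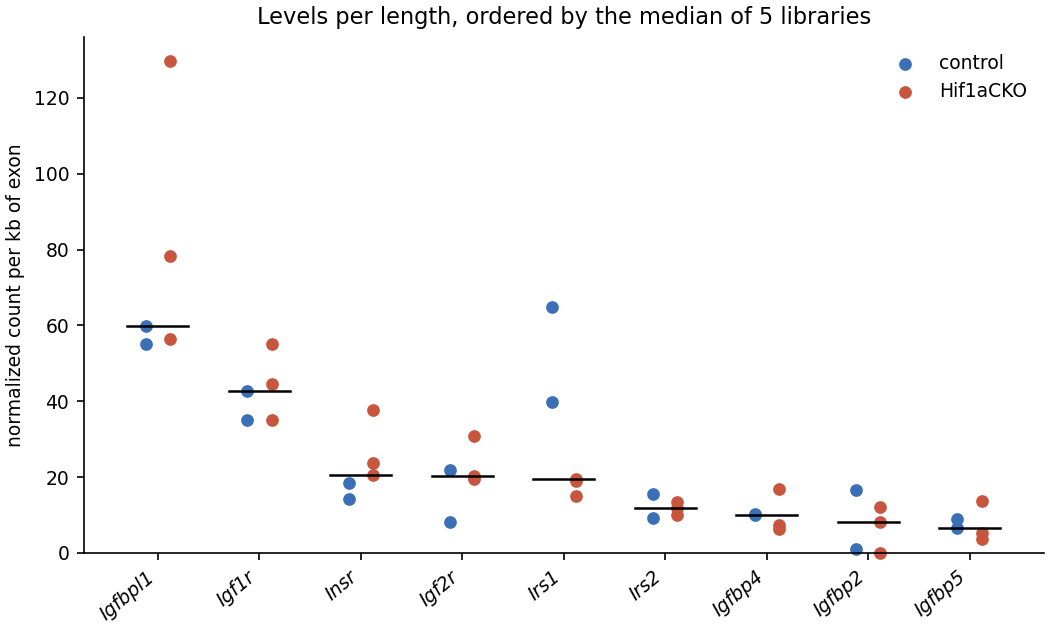
Normalized counts per kb of exon (vertical axis, linear) of the 9 members, ordered by the median of 5 libraries (black bars). Points are control (blue) and *Hif1aCKO* (red) libraries; *Igfbpl1* lies above *Igf1r* in every library and *Irs1* separates by genotype.

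Of the ligands, *Ins1* and *Ins2* were not analysed here. *Igf1* had 281 and 18.6 normalized counts in control and 231, 101, and 198 in *Hif1aCKO* libraries. Control replicate 6 stood far below the other 4 libraries, and the log2 fold change of 0.24 ± 0.86 (SE) became 3.24 without control replicate 5 and -0.68 without control replicate 6. *Igf2* had 8 and 4 raw counts in control and 0, 1, and 0 in *Hif1aCKO* libraries and did not pass the filter. These are reads at the limit of detection, and *Igf2* shares 62.8% of its exonic bases with another annotated gene on the same strand.

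Of the other family members, *Irs3*, *Igfbp6*, and *Igfals* were not analysed here, and *Igfbp7*, whose product binds IGFs weakly, had 59.4 to 78.9 normalized counts in all 5 libraries (log2 fold change -0.081 ± 0.41 SE). *Insrr*, an orphan receptor of the insulin receptor family, had 38 raw counts in control replicate 6 and 0 to 4 in the other libraries. *Igfbp1* had 17 counts in *Hif1aCKO* replicate 4, 2 in replicate 5, and 0 elsewhere, and *Igfbp3* had 22 in *Hif1aCKO* replicate 4 and at most 5 elsewhere. *Insrr*, *Igfbp1*, and *Igfbp3* did not pass the filter on low counts, and in each of them 1 library held most of the reads.

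Downstream of the receptors and around them, 75 further pathway genes were listed, 66 had a row, and 54 were tested. edgeR called 0 of the 54 and DESeq2 called 0. An unadjusted p under 0.05 in edgeR was reached by 3 of them (5.56%, against 7.67% of all genes), 1 higher and 2 lower. Of the 54, 28 were higher and 26 lower, the median log2 fold change was 0.039, and the genotypes did not overlap for 17 (31.5%, against 25.7% of all genes). These 17 comprised 5 higher and 12 lower genes, against 12.9% of all genes in each direction.

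*Pik3r2*, a regulatory subunit of PI3K, had 140 and 154 normalized counts in control and 273, 197, and 253 in *Hif1aCKO* libraries (log2 fold change 0.71 ± 0.28 SE, adjusted p = 0.622 in edgeR). *Socs6*, an inhibitor of receptor signalling that binds the insulin receptor and IRS proteins, had 561 and 773 in control and 456, 326, and 334 in *Hif1aCKO* libraries (log2 fold change -0.84 ± 0.24 SE, adjusted p = 0.598). *Ide*, the insulin-degrading enzyme, had 1358 and 1239 in control and 944, 986, and 1047 in *Hif1aCKO* libraries (log2 fold change -0.39 ± 0.15 SE, adjusted p = 0.621). These 3 genes were named for an unadjusted p under 0.05 in edgeR, so their lack of overlap between genotypes is no separate result. None passed the adjusted threshold.

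The remaining lists showed no call. The 10 tested PI3K and AKT genes had a median log2 fold change of -0.035 (4 higher, 6 lower) and the 11 mTOR branch genes 0.12 (8 higher, 3 lower). The 9 Ras branch adaptors had a median of -0.11 (3 higher, 6 lower), the 14 receptor adaptors and inhibitors 0.072 (8 higher, 6 lower), and the 3 *Igf2* mRNA-binding proteins 0.032. The 4 tested FoxO and GSK3 genes comprised 2 higher and 2 lower, without overlap between genotypes (4 of 4, against 25.7% of all genes), and their lowest adjusted p was 0.654. Of 5 binding protein proteases and inhibitors, 1 was tested and had a log2 fold change of -0.74. Leaving out a library brought DESeq2 calls in this list of 54. Without control replicate 5, *Igf1* was called higher (adjusted p = 0.00298), as were 0.199% of all genes. Without *Hif1aCKO* replicate 3, *Socs6* (0.0209), *Pik3r3* (0.0338), and *Gsk3b* (0.00217) were called lower by DESeq2, the last pair being named after their values were seen. In that fit DESeq2 called 273 genes in place of 60, and 0.984% of all genes lower.

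**Figure D5:**
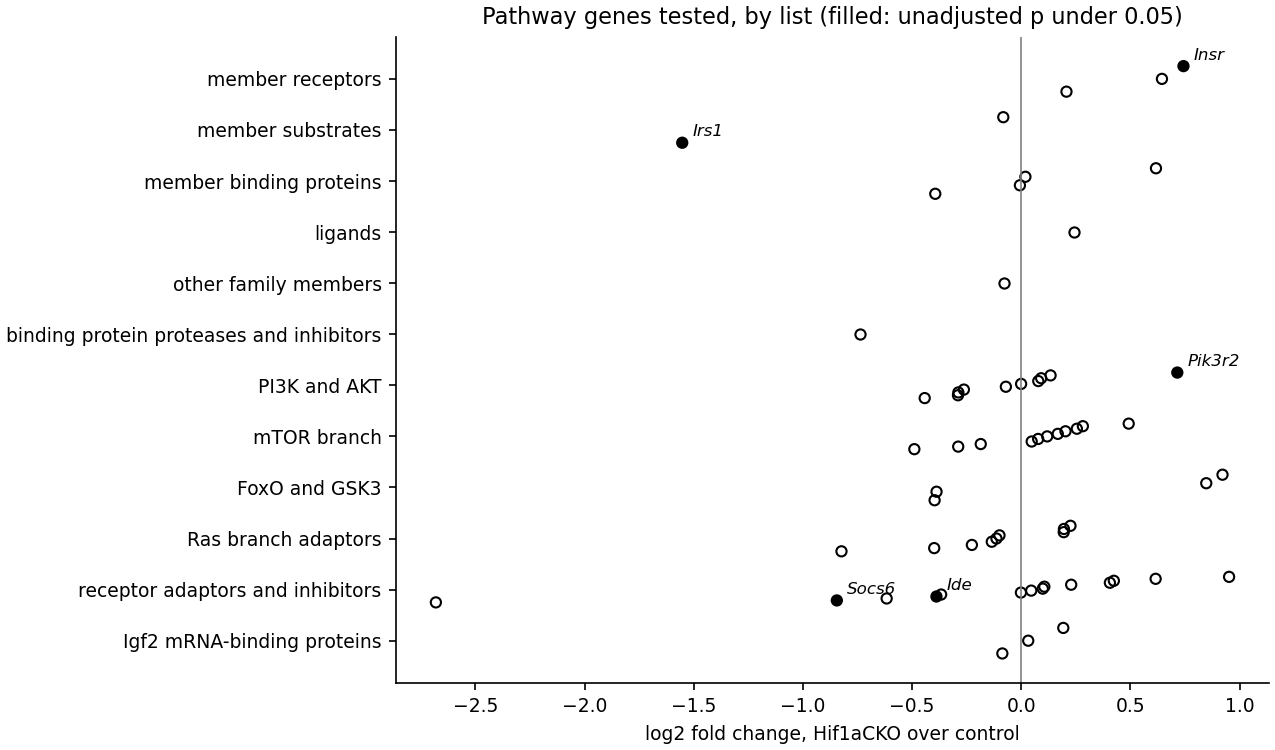
Log2 fold change of *Hif1aCKO* over control (horizontal axis) for the 9 members and 54 other pathway genes tested, by list (vertical axis). Each circle is 1 gene and filled circles have an unadjusted p under 0.05 in edgeR; the lists lie on both sides of 0, and *Irs1* and *Insr* lie on opposite sides.

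The genes whose pattern over the 5 libraries was most like that of *Irs1* were *Rgs4*, *Gm9747*, *Car12*, *Zscan18*, and *Slc2a3*. Likeness was the root mean square difference of centred log2 normalized counts among the 10842 genes with a mean of at least 50, and it was 0.116 for *Rgs4* and 0.147 to 0.252 for the others. *Rgs4*, a regulator of G protein signalling, had 7839 and 16124 normalized counts in control and 4154, 4638, and 3290 in *Hif1aCKO* libraries. *Slc2a3*, a neuronal glucose transporter, had 2673 and 4029 in control and 1809, 1341, and 1416 in *Hif1aCKO* libraries. In both, control replicate 6 was the highest library, as for *Irs1*. The log2 fold changes of these 5 genes ran from -1.57 for *Rgs4* to -1.15 for *Car12* and *Slc2a3*. Since they were chosen for likeness to *Irs1*, these values are a description.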

How the data were processed

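The authors trimmed reads with cutadapt (version 1.18) and other tools, removed ribosomal and vector reads with Bowtie (version 1.2.2) among others, mapped the rest to GRCm38 with STAR (version 2.7.0c), and counted reads per gene without those mapping to several places. The deposited values were raw counts for 20224 genes, of which 49 had no count and 20195 were named by GENCODE M21. Total counts lay between 8254211 and 9700887, with TMM factors of 0.974 to 1.03. Counting error of reads is therefore small for members above 100 counts. The sampling of transcripts from 100 cells was not measured apart from the spread between libraries (biological coefficient of variation 0.384), which limits the precision.

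Libraries were grouped by the labelled genotype. Counts were tested with edgeR (version 4.0.16; TMM, filterByExpr, quasi-likelihood test, two-sided, Benjamini-Hochberg adjustment over 15032 genes) in R (version 4.3.3), with genotype as the only term. Standard errors and 95% intervals came from the same fit. A normalized count is the count divided by the total and TMM factor, times the mean effective library size. Levels per kb used the union of exons. The alternatives were RLE and upper-quartile factors, total count only, DESeq2 (version 1.42.0), limma-voom (limma version 3.58.1), 2 other filters, no threshold on the mean, and leaving out each library. DESeq2 with a library left out was added after seeing the data. No pair of libraries was a duplicate (chi-square per degree of freedom 14.6 to 37.8).

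The members, gene lists, and thresholds were chosen with earlier results of these data known. The genes named were the members, *Hif1a*, the ligands and family members, other pathway genes with an unadjusted p under 0.05 in edgeR or a DESeq2 call, and the 5 genes most like *Irs1* (pseudocount 0.5). Chromaffin cell markers summed to 13194 and 15042 in control and 14235 to 19109 in *Hif1aCKO* libraries, but the genes moved in opposite directions. *Cartpt* was higher in every *Hif1aCKO* library (7650 and 6243 against 13438, 11310, and 17992). *Chgb* (5514 and 8695 against 776, 4732, and 1106) and *Pnmt* were lower in every one, and *Penk* overlapped. Sensory neuron markers summed to 442 and 809 in control and 529 to 826 in *Hif1aCKO* libraries. Python 3.11.15 with pandas 2.3.3 and matplotlib 3.10.9 made the tables and figures. Promoter sequences came from RefSeq (GRCm38.p6).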

Additional observations from a re-analysis of the deposited data

How the results depend on the processing

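With 2 libraries against 3, the fold changes of most members depended on single libraries. The log2 fold changes of *Insr*, *Igf1r*, *Igf2r*, *Irs1*, and *Igfbpl1* kept their sign under every alternative run, that of *Irs1* between -1.87 and -1.16. DESeq2 called 1 member where edgeR called 0, and 0 to 1 with a library left out (0 without control replicate 6), while edgeR called 0 in each omission. The tools differed with the same libraries, and the cause was not tested. Members without overlap numbered 3 to 5 with a library left out, where fewer libraries had to separate. The share over all genes in those settings is not given here, so these numbers have no background to be read against. DESeq2 called 0 to 3 pathway genes with a library left out. Over all genes, DESeq2 called 60, and 67, 6, 273, 40, and 36 without control replicates 5 and 6 and *Hif1aCKO* replicates 3, 4, and 5. edgeR called 4 without control replicate 5 and 0 otherwise.

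Signs turned in *Irs2*, *Igfbp2*, *Igfbp4*, and *Igfbp5* and, outside the members, in *Igf1* and *Igfbp7*. *Igfbp4* was -0.11 with limma-voom, and *Igfbp5* was 0.035 with upper-quartile factors and 0.0043 with at least 10 counts in every library. With a library left out, edgeR's log2 fold changes ranged from -0.42 to 0.34 (*Irs2*), -1.29 to 2.51 (*Igfbp2*), -0.55 to 0.27 (*Igfbp4*), -0.75 to 0.32 (*Igfbp5*), -0.68 to 3.24 (*Igf1*), and -0.19 to 0.017 (*Igfbp7*). With DESeq2 they ranged from -0.42 to 0.34 (*Irs2*), -1.30 to 2.58 (*Igfbp2*), -0.55 to 0.27 (*Igfbp4*), and -0.76 to 0.32 (*Igfbp5*), and turned sign also at 0.021 (*Irs2*) and 0.19 (*Igfbp2*) without *Hif1aCKO* replicate 5, -0.020 (*Igfbp4*) without control replicate 6, and 0.23 and 0.19 (*Igfbp5*) without control replicate 5 and *Hif1aCKO* replicate 3. In fits with 1 control library it was assumed to vary like the others. *Igfbp2* has no value under the filter of at least 10 counts. No paired analysis was possible because the genotypes share only replicate number 5.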
